A study of Bos grunniens and Bos grunniens x Bos taurus with 2 samples.

Results

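The late spermatocytes (late-SPC) described here were 261 of the 11991 cells of a yak testis library, and of 20921 cells in the series. Their members were the barcodes that the study typed as late-SPC among 1127 typed germ cells, and every one of them was found in the deposited counts. The study set its types from the expression of the same cells, so the levels below describe the type and test nothing. They are set against the 72 early spermatocytes (early-SPC) and the 224 spermatids (SPT) of the same typing. The yak (*Bos grunniens*) was a healthy, sexually mature male, 4 years old, and untreated as far as the labels say. Frozen testis pieces were thawed and digested with collagenase IV, hyaluronidase and trypsin, and droplet-based single-cell RNA sequencing followed. The other library came from a mature cattle-yak, the hybrid of yak and cattle, prepared in the same way. The labels call both libraries germ cells, but 885 kept yak cells outside the typed set carried UMIs of at least 2 T cell genes (of *CD3D*, *CD3G* and *CD247*). These T cell reference cells serve as the background level of germline RNA in another cell type. That background holds free RNA and any mixed droplets, which were not told apart, and acrosome genes took up to 1.92% of the UMIs of a single such cell.

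Male germ cells pass from early to late spermatocytes while their chromosomes pair, recombine and prepare for the meiotic divisions. In late (pachytene and diplotene) spermatocytes of mammals, PIWI proteins are loaded with pachytene piRNAs, most genes of the X chromosome are silenced, and many genes of the future acrosome and flagellum are switched on well before the sperm is built. Spermatids then replace histones and form the acrosome, the tail and the condensed head.

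A unique molecular identifier (UMI) marks 1 captured RNA molecule, and levels are given as UMIs summed over the cells of a type per 1000000 UMIs of that type (CPM). Late-SPC cells held 476295 UMIs, with a median of 1168 UMIs and 726 genes per cell and a range of 542 to 10670 UMIs. Early-SPC cells held 284770 UMIs (median 1799.5) and SPT cells 271625 UMIs (median 906). The upper quartile of early-SPC cells was 7894 UMIs, so its deepest cells make up much of each early-SPC sum. In late-SPC cells the median mitochondrial share was 9.24%. A single UMI was worth 2.1 CPM in late-SPC. Of 24 barcodes found in both libraries, 0 were late-SPC barcodes. Each group came from 1 library, so no p-value is given and the 95% intervals (exact Poisson for levels, exact binomial for shares, exact conditional for ratios) cover counting error only. Fewer cells of a kind within a type and less RNA per cell cannot be told apart in such sums.

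The markers named for late-SPC describe the type and do not test it. *PIWIL1*, which binds pachytene piRNAs, *ADAM2*, a sperm surface protein of the ADAM family, and *SPATA16*, a protein of acrosome formation, were all highest in late-SPC among the 5 germ cell types. *PIWIL1* stood at 414 CPM (95% interval 358 to 476) in late-SPC, 14.0 CPM in early-SPC, 11.3 CPM in spermatogonia (SPG) and 0 CPM in both SPT and spermatogonial stem cells (SSC). *ADAM2* stood at 315 CPM (267 to 370) in late-SPC, 7.02 CPM in early-SPC and 44.2 CPM in SPT. *SPATA16* stood at 695 CPM (622 to 774) in late-SPC, 28.1 CPM in early-SPC and 313 CPM in SPT. With 0 counts in SPT, *PIWIL1* was at least 37.4-fold higher in late-SPC (3 counts over the SPT cells as the floor), whereas *ADAM2* and *SPATA16* were also counted in SPT, at lower levels.

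Of 13 late-SPC marker genes that the study names, 10 are in the annotation (not *ACR*, *LCA5* and *SPAG6*), and 8 of these 10 were highest in late-SPC. The study typed these cells by known marker genes and the genes of each cluster, so the list is no independent evidence. *PGK2*, the glycolytic enzyme of sperm that stands in for its X-linked parent gene, stood at 269 CPM in late-SPC, 3.51 CPM in early-SPC and 158 CPM in SPT. *NME8*, an axonemal protein, stood at 227 CPM in late-SPC, 3.51 CPM in early-SPC and 22.1 CPM in SPT. *CCNA1*, the cyclin of the first meiotic division, stood at 193, 3.51 and 18.4 CPM in late-SPC, early-SPC and SPT. *MLH3*, a crossover factor, gave 73.5 CPM in late-SPC and 0 CPM in early-SPC. *LRRIQ1* and *TMEM107* were highest in SPT, at 261 against 155 CPM and 22.1 against 14.7 CPM, and the intervals of the second gene overlapped.

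**Figure D1:**
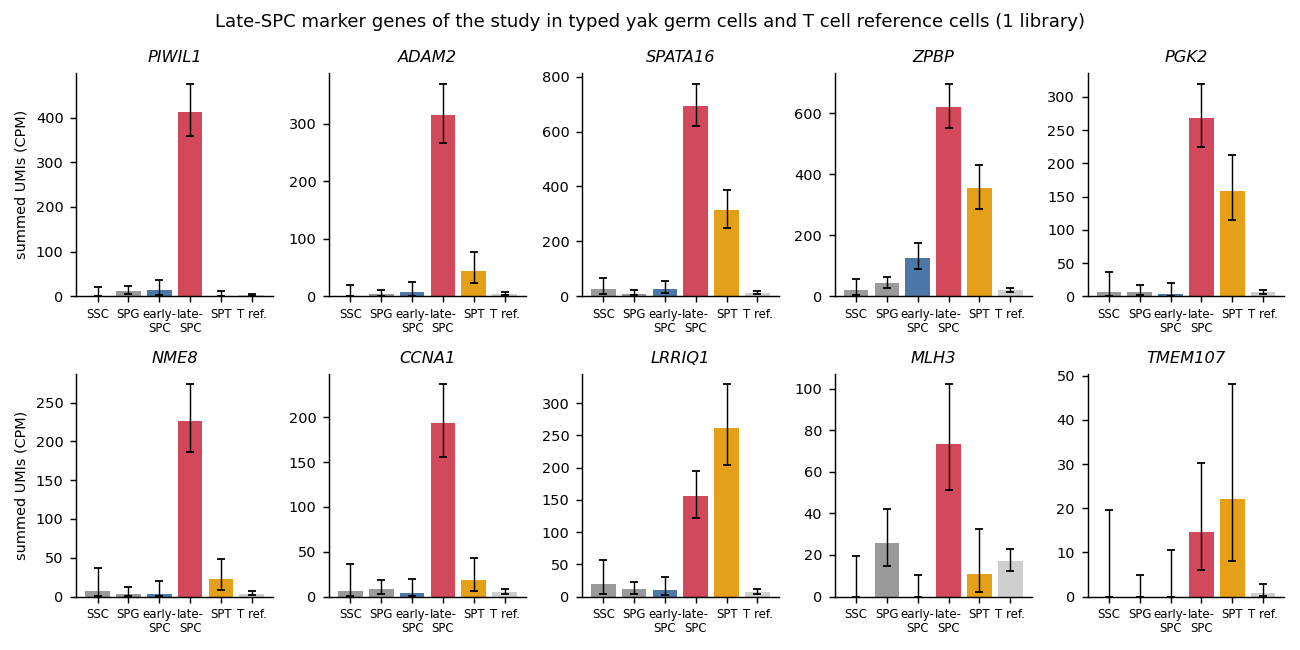
Level of each of the 10 annotated late-SPC marker genes (vertical axes, summed UMIs in CPM, each gene on its own scale) in the 5 typed germ cell types and in T cell reference cells (T ref.), with bars for the summed level and lines for exact 95% Poisson intervals. The late-SPC bar is the highest in 8 of 10 genes, and *LRRIQ1* and *TMEM107* are highest in SPT.

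Per cell the markers were sparse. A UMI of at least 1 of *PIWIL1*, *ADAM2* and *SPATA16* was found in 166 of 261 late-SPC cells (63.6%, 57.4% to 69.4%), in 29.5% of SPT cells, in 11.1% of early-SPC cells and in 4.63% of T cell reference cells, whose median depth was higher (2296 UMIs). With every cell thinned to 500 UMIs, which left out no cell, at least 2 of the 10 markers were seen in 31.0% of late-SPC cells (25.5% to 37.0%) and in 12.1% of SPT cells. None of 72 early-SPC cells and none of 885 T cell reference cells reached that number, which allows shares of up to 4.17% and 0.339% (3 cells of the total as the floor). Without thinning the shares were 61.7% in late-SPC, 29.0% in SPT, 8.33% in early-SPC and 1.36% in T cell reference cells. A cell without a marker UMI may still express the gene at this depth.

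Late-SPC was also set against all other kept cells of the library. The study's limits on UMIs, genes and mitochondrial share were applied again here to define kept cells, and all 261 late-SPC cells were among them. Of the 15 genes with the largest log2 ratio, 9 have a symbol and 6 do not. *PIWIL1* led the named genes with 6.05, followed by *ADAM2* (5.82), *NME8* (5.76), the acrosome anchoring protein *DPY19L2* (5.42), *BBOF1*, a basal body protein (5.37), *CLGN*, a chaperone for sperm surface proteins (5.34), the adenylate kinase *AK9* (5.33), *FAM216A* (5.30) and *PSMA8*, the spermatocyte form of a proteasome subunit (5.22). These are log2 ratios of CPM with 1 CPM added to both sides. The highest of the 6 genes without a symbol, ENSBGRG00000014466, had a ratio of 6.44 and stood at 609 CPM in late-SPC, 28.1 CPM in early-SPC and 11.0 CPM in SPT.

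Against early-SPC, late-SPC had more RNA of genes for the acrosome, the flagellum and the sperm surface, and less of genes for chromosome axes and recombination. Of 2799 genes with at least 50 UMIs over both types, 649 (23.2%) were at least 4-fold higher in late-SPC and 447 (16%) at least 4-fold lower, with a median log2 ratio of 0.28. With each cell thinned to 500 UMIs, 119 genes were higher and 40 lower among 516. The minimum of 50 UMIs was kept there, and 261 thinned late-SPC cells hold more UMIs than 72 thinned early-SPC cells. Genes high in late-SPC therefore passed it more easily, and the split is no plain check of depth. Against SPT, 239 (8.57%) of 2788 genes were at least 4-fold higher and 285 (10.2%) at least 4-fold lower, with a median log2 ratio of 0.40, and at 500 UMIs per cell the split was 24 higher and 59 lower of 804. The typing used these same genes, so no such count is evidence for the type. A list member with few counts in one type passed the minimum of 50 UMIs only where the other type was high. The counts of members below therefore describe the members that passed and support nothing, and the sums and their ratios cover every annotated member. Counts of members by the type in which they were highest, here and above, are a description too. The share of all genes highest in each type is not given, so these counts cannot be set against it.

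Chromosome axis and synapsis genes were lower in late-SPC than in early-SPC and higher than in SPT. The 14 annotated genes of the list summed to 2585 CPM in late-SPC, 7989 CPM in early-SPC and 618 CPM in SPT. Against early-SPC, 0 of 12 members with enough counts were 4-fold higher and 2 were 4-fold lower (16% of all genes were), and 11 of the 12 had a log2 ratio below 0, with a median of -1.29 (0.28 over all genes). *SMC1B*, a cohesin subunit of meiosis, stood at 1784 CPM in early-SPC, 630 CPM in late-SPC and 44.2 CPM in SPT. *SYCP1*, the transverse filament of the synaptonemal complex, stood at 1359, 294 and 58.9 CPM in the same order. The axial element gene *SYCP3* differed most, with 1787 CPM in early-SPC against 14.7 CPM in late-SPC (5.91 to 30.3) and 18.4 CPM in SPT, so its RNA was about as low in late-SPC as in SPT. Its partner *SYCP2* was still at 294 CPM in late-SPC, against 548 CPM in early-SPC. *HORMAD2*, which marks unsynapsed axes, was the list's 1 member with its highest level in late-SPC, at 267 CPM against 147 CPM in early-SPC and 18.4 CPM in SPT.

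Genes of double-strand breaks and recombination also summed to less than in early-SPC. Their 20 annotated members summed to 1537 CPM in late-SPC, 8172 CPM in early-SPC and 825 CPM in SPT, and 8 of 14 members with enough counts were at least 4-fold lower than in early-SPC (16% of all genes were). Of the 14, 11 had a log2 ratio below 0, and of all 20, 13 were highest in early-SPC and 6 in late-SPC. Members with few counts in late-SPC included *RAD51AP2* (741 CPM in early-SPC, 2.1 CPM in late-SPC), the histone mark reader *ZCWPW1* (2254 and 25.2 CPM), the checkpoint ATPase *TRIP13* (513 and 10.5 CPM) and the crossover helicase *HFM1* (562 and 23.1 CPM). Other members were closer to their early-SPC level. *MEIOB*, a single-strand DNA binding factor, stood at 590 CPM in early-SPC and 160 CPM in late-SPC, and *MND1*, a partner of the recombinases, at 414 and 323 CPM. Members above their early-SPC level by less than 4-fold included *REC114*, a break formation factor (73.7 CPM in early-SPC, 191 CPM in late-SPC), and *HSF2BP*, a partner of BRCA2 (162 and 183 CPM). The recombinase *DMC1* was among the members with few counts left, at 232 CPM in early-SPC, 14.7 CPM in late-SPC and 177 CPM in SPT. Against SPT, 2 of 7 members with enough counts were at least 4-fold higher (8.57% of all genes were). Only *DMC1*, 1 of the 7, was at least 4-fold lower (10.2% of all genes were), and the median log2 ratio was 0.79 (0.40 over all genes).

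The summed level of the piRNA pathway was higher in late-SPC than in both other types. Its 18 annotated genes summed to 4052 CPM (3873 to 4237) in late-SPC, 1559 CPM in early-SPC and 2058 CPM in SPT. Against early-SPC, 7 of 12 members were at least 4-fold higher (23.2% of all genes were) and none 4-fold lower, and against SPT 5 of 10 were higher (8.57% of all genes were) and none lower, with median log2 ratios of 2.74 and 2.27 (0.28 and 0.40 over all genes). *DDX25*, an RNA helicase of the chromatoid body, gave the most counts, with 1384 CPM in late-SPC, 176 CPM in early-SPC and 600.1 CPM in SPT. The log2 ratios of the summed list to early-SPC and SPT were 1.38 and 0.98, and 0.95 and 0.87 without *DDX25*. With cluster 3 of late-SPC alone they were 0.89 and 0.49, and with cluster 7 alone 1.94 and 1.54. The Tudor domain genes *TDRD5* (342 CPM in late-SPC, 21.1 in early-SPC and 14.7 in SPT) and *TDRD1* (187, 3.51 and 18.4 CPM) followed the pattern of *PIWIL1*. *GTSF1*, a cofactor of PIWI proteins, and *MAEL*, another pathway factor, were instead highest in SPT, at 865 and 335 CPM against 426 and 244 CPM in late-SPC. The other 5 members lay below their early-SPC level by less than 4-fold, with log2 ratios of -0.39 for *RNF17*, -0.084 for *TDRD9*, -0.50 for *TDRKH*, -0.19 for *TDRD7* and -0.16 for *ASZ1*.

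Genes of the meiotic divisions summed to less in late-SPC than in early-SPC, and their members lay on both sides. The 26 annotated genes summed to 3206 CPM in late-SPC, 4779 CPM in early-SPC and 582 CPM in SPT, and 12 members were highest in late-SPC and 11 in early-SPC. Against early-SPC, 5 of 15 members were at least 4-fold higher (23.2% of all genes were) and 4 at least 4-fold lower (16%). Higher were the mitotic kinases *AURKA* (241 CPM in late-SPC, 10.5 CPM in early-SPC) and *NEK2* (275 and 10.5 CPM), the anaphase activator *CDC20* (250 and 35.1 CPM), *HSPA2*, the chaperone that spermatocytes need to activate CDK1 (277 and 52.7 CPM), and *CCNA1*. Lower were the topoisomerase *TOP2A* (1369.5 CPM in early-SPC, 231 CPM in late-SPC), the spindle factors *KIF23* (502 and 111 CPM) and *TPX2* (428 and 79.8 CPM) and the checkpoint kinase *TTK* (390 and 48.3 CPM). The log2 ratio of the summed list to early-SPC was -0.58 (-0.68 to -0.47), and much of it rested on *TOP2A*. It was -0.20 without *TOP2A*, -0.16 with cluster 7 of late-SPC alone and -0.91 with cluster 3 alone. Against SPT, 11 of 13 members were at least 4-fold higher in late-SPC (8.57% of all genes were) and 0 lower.

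**Figure D2:**
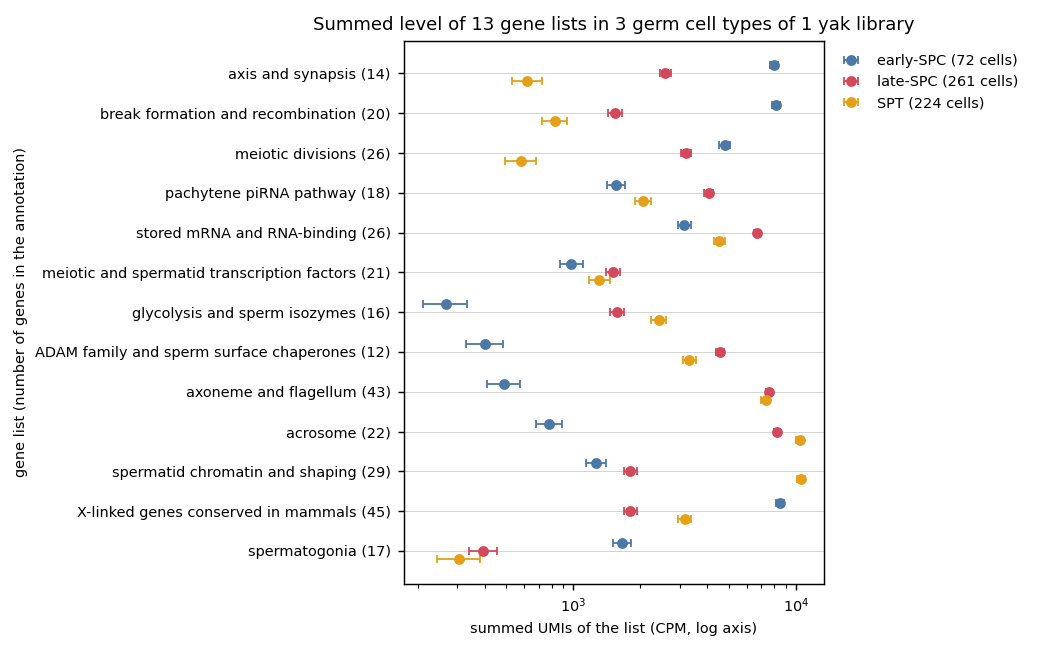
Summed level of 13 gene lists (rows, with the number of annotated genes) in early-SPC, late-SPC and SPT cells, in CPM on a log axis with exact 95% Poisson intervals. Late-SPC lies between the other types for axis, recombination and division genes, above both for piRNA, stored mRNA and sperm surface genes, and below both for X-linked genes. For sperm surface genes the place above SPT rests on *CLGN* (log2 ratio -0.79 without it).

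Genes of the sperm surface, the acrosome and the flagellum summed to more in late-SPC than in early-SPC. For the 12 annotated genes of the ADAM family and its chaperones the sums were 4554 and 400.3 CPM, a log2 ratio of 3.51 (3.24 to 3.79) that was 2.62 without *CLGN*. Only 4 of the 12 had 50 UMIs over both types, out of 2169 list UMIs in late-SPC and 114 in early-SPC, and these 4 were at least 4-fold higher (23.2% of all genes were). *CLGN* made up most of it, with 3112 CPM (2955 to 3274) in late-SPC, 165 CPM in early-SPC and 825 CPM in SPT, and a UMI in 87.4% of late-SPC cells (10.7% of T cell reference cells). Its relative *CALR3* stood at 611, 87.8 and 836 CPM, and *ADAM32* at 395, 10.5 and 357 CPM. The list was above SPT by a log2 ratio of 0.45, but the ratio was -0.79 once *CLGN* was left out, and the median over its 7 members with enough counts was -0.45, with 1 at least 4-fold higher and 3 lower (8.57% and 10.2% of all genes were).

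The 22 annotated acrosome genes summed to 8209 CPM in late-SPC, 780 CPM in early-SPC and 10400.4 CPM in SPT, with a log2 ratio to early-SPC of 3.4 (3.20 to 3.60). T cell reference cells had 489 CPM of this list. Of the 7 members with enough counts, 6 were at least 4-fold higher than in early-SPC (23.2% of all genes were). The genes with most late-SPC counts were the acrosomal protein gene *DKKL1* (3855 CPM in late-SPC, 204 CPM in early-SPC, 2761 CPM in SPT) and *IZUMO4*, of the family of the egg-binding protein IZUMO1 (1596, 45.7 and 618 CPM). Both were higher than in SPT, with log2 ratios of 0.48 (0.36 to 0.61) and 1.37 (1.12 to 1.62). The remaining acrosome genes were mostly SPT genes, 15 of 22 being highest there. The vesicle protein gene *ACRV1* stood at 56.7 CPM in late-SPC and 582 CPM in SPT, *SPACA1* at 88.2 and 482 CPM, *TMEM190* at 79.8 and 1340.1 CPM, and the tail and acrosome protein gene *CRISP2* at 611 and 1329 CPM. Against SPT, 8 of 15 members were at least 4-fold lower (10.2% of all genes were) and none higher, with a median log2 ratio of -2.44 (0.40 over all genes).

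The 43 annotated genes of the axoneme and flagellum summed to 7560 CPM in late-SPC, 488 CPM in early-SPC and 7308 CPM in SPT, with a log2 ratio to early-SPC of 3.95 (3.71 to 4.21). T cell reference cells had 455 CPM of this list, so the early-SPC sum was near that background. Of these genes, 18 had enough counts over late-SPC (3601 list UMIs) and early-SPC (139 list UMIs), and 17 of the 18 were at least 4-fold higher in late-SPC (23.2% of all genes were). Of all 43, 23 were highest in late-SPC and 20 in SPT. *LCA5L*, related to a ciliary transport protein, stood at 2125 CPM in late-SPC, 77.3 CPM in early-SPC and 751 CPM in SPT. *ODF2*, of the outer dense fibres, stood at 760, 28.1 and 1193 CPM. Against SPT, 4 of 31 members with enough counts were at least 4-fold higher and 3 at least 4-fold lower, near the 8.57% and 10.2% of all genes. The higher ones were *NME8*, *AK9* (351 against 25.8 CPM) and genes of the radial spoke head, *RSPH1* (191 against 29.5 CPM), and of the ruler of dynein spacing, *CCDC40* (166 against 33.1 CPM). The last 3 had 0 counts in early-SPC, which made them at least 33.3-fold, 18.1-fold and 15.7-fold higher in late-SPC. The lower ones were *TEKT3*, of the microtubule inner proteins (65.1 against 283 CPM), *AKAP3*, of the fibrous sheath (46.2 against 434 CPM), and *ODF1*, of the outer dense fibres (14.7 against 188 CPM). The related *TEKT1* (189 against 526 CPM) and *TEKT2* (195 against 681 CPM) were lower by less than 4-fold. Over the whole list the log2 ratio to SPT was 0.05 (-0.03 to 0.13). It was -0.27 without the member with the most counts, -0.39 with cluster 7 of late-SPC alone and 0.26 with cluster 3 alone.

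Genes for spermatid chromatin and head shaping were lower in late-SPC than in SPT. The 29 annotated genes summed to 1806 CPM in late-SPC and 10543.9 CPM in SPT, a log2 ratio of -2.55 (-2.66 to -2.44). They summed to 1264 CPM in early-SPC and 595 CPM in T cell reference cells, and the log2 ratio of late-SPC to early-SPC was 0.51 (0.34 to 0.70), or 1.45 without the bromodomain gene *BRD7* (678 CPM in early-SPC, 206 CPM in late-SPC). Of 22 members with enough counts over late-SPC and SPT, 17 were at least 4-fold lower (10.2% of all genes were) and none higher. *HMGB4*, a chromatin protein of spermatids, stood at 69.3 CPM in late-SPC and 1749 CPM in SPT. The testis-specific kinase gene *TSSK1B* had 0 counts in late-SPC and 427 CPM in SPT, and *SPATA3* 0 counts and 195 CPM, so they were at least 67.8-fold and 31.0-fold higher in SPT. *SPEM1*, needed for removal of the spermatid cytoplasm, stood at 8.40 and 453 CPM. Some members were not lower. *BRDT*, the testis bromodomain protein, stood at 395 CPM in late-SPC and 228 CPM in SPT, and *CCDC62* at 309 and 155 CPM.

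The 10 genes furthest above SPT were led by *PIWIL1*. Others were *CCDC38* (153 against 3.68 CPM), the glycine transporter *SLC6A9* (120 against 3.68 CPM), *FKBP6*, a cochaperone of the piRNA pathway (309 against 11.0 CPM), and the division genes *CKAP2* (248 against 7.36 CPM) and *PRC1* (393 against 14.7 CPM). The 2 division genes were also abundant in early-SPC, at 365 and 558 CPM. The genes furthest above early-SPC were *PDCL2* (609 CPM in late-SPC), *ANKAR* (464 CPM), *AK9*, the homeobox gene *VSX1* (344 CPM), *RNF32* (332 CPM), *DYDC1* (239 CPM), the nuclear export factor *NXT1* (229 CPM) and *DPY19L2* (218 CPM), which had 0 counts in early-SPC and so were at least 57.8-fold (*PDCL2*) to 20.7-fold (*DPY19L2*) higher. Of the 10 furthest below, 3 have the symbol of a protein-coding gene, namely *RAD51AP2*, the histone methyltransferase *KMT5C* (186 CPM in early-SPC, 0 counts in late-SPC) and the kinase *WNK3* (446 and 2.1 CPM). Among those without a symbol, ENSBGRG00000026304 stood at 569 CPM in early-SPC and 0 counts in late-SPC.

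RNA-binding proteins of translational control summed to more in late-SPC than in both other types. The 26 annotated genes summed to 6683 CPM in late-SPC, 3157 CPM in early-SPC and 4525 CPM in SPT. Of 16 members with enough counts, 3 were at least 4-fold higher than in early-SPC, a smaller share than the 23.2% of all genes, 10 had a log2 ratio below 0 and the median was -0.19. The 3 were the Y-box proteins *YBX3* (1638 CPM against 28.1 CPM) and *YBX2* (922 against 21.1 CPM), which package stored mRNA, and the double-stranded RNA binding protein *ADAD1* (1516 against 133 CPM). In SPT they stood at 1075, 534 and 1281 CPM. Against SPT, 12 of 13 members with enough counts had a log2 ratio above 0, 2 of them at least 4-fold (8.57% of all genes were) and none 4-fold lower, with a median of 0.79 (0.40 over all genes). The meiotic entry factors *YTHDC2* (113 CPM in late-SPC, 414 CPM in early-SPC) and *MEIOC* (160 and 393 CPM) were lower.

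Of the transcription factors of meiosis and spermatid development, *TCFL5*, a basic helix-loop-helix factor, gave the most late-SPC counts. It stood at 449 CPM (391 to 514) in late-SPC, 3.51 CPM in early-SPC and 40.5 CPM in SPT. *GTF2A1L*, a germ cell form of TFIIA, stood at 227, 3.51 and 99.4 CPM, and *KCTD19*, a factor of meiotic progression, at 139, 7.02 and 14.7 CPM. The list of 21 summed to 1503 CPM in late-SPC, 980 CPM in early-SPC and 1311 CPM in SPT, and its log2 ratio to SPT of 0.20 turned to -0.27 without *TCFL5*. Its log2 ratio to early-SPC was 0.62, and 2.86 without the histone deacetylase *HDAC1*, which made up 797 CPM of the early-SPC sum.

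Glycolysis genes and sperm isozymes summed to more than in early-SPC and to less than in SPT. The list of 16 summed to 1573 CPM in late-SPC, 267 CPM in early-SPC and 2415 CPM in SPT, and 4 of 6 members were at least 4-fold higher than in early-SPC (23.2% of all genes were). Against SPT 0 of 8 were 4-fold higher and 2 were 4-fold lower (10.2% of all genes were), and 3 of the 8 had a log2 ratio above 0. *PDHA2*, the autosomal copy of a pyruvate dehydrogenase subunit, stood at 296 CPM in late-SPC, 3.51 CPM in early-SPC and 722 CPM in SPT, whereas the X-linked *PDHA1* had 0 counts in late-SPC and 17.6 CPM in early-SPC. In the other such pair, *PGK2* stood at 269 CPM in late-SPC and *PGK1* at 4.20 CPM (0.509 to 15.2). The X-linked parents were also low in early-SPC and SPT (10.5 and 14.7 CPM for *PGK1*). The kinase *PFKP* was highest in late-SPC, with 319 CPM against 17.6 CPM in early-SPC and 180.4 CPM in SPT.

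X-linked genes took a smaller share of RNA in late-SPC than in any other germ cell type. UMIs on 45 genes that lie on the X chromosome across mammals made up 0.180% (0.169% to 0.193%) of late-SPC UMIs, 0.847% of early-SPC UMIs, 0.316% of SPT UMIs, 0.645% of SPG UMIs and 0.676% of T cell reference UMIs. The list was set from knowledge of other mammals, since coordinates of the build used were not analysed here. Of 12 members with enough counts, 8 were at least 4-fold lower in late-SPC than in early-SPC (16% of all genes were) and none higher, with a median log2 ratio of -2.40 (0.28 over all genes). Against SPT all 8 members with enough counts were lower, none of them 4-fold (median -0.86). *EIF1AX*, a translation initiation factor, accounted for much of the early-SPC share (4653 CPM, against 405 CPM in late-SPC), and without it the shares were 0.140% in late-SPC and 0.381% in early-SPC. The replication gene *POLA1* stood at 341 CPM in early-SPC and 6.30 CPM in late-SPC, and *TSPYL2* at 822 and 18.9 CPM. *RPS4X*, a ribosomal protein gene, was above its early-SPC level, with 479 CPM in late-SPC, 165 CPM in early-SPC and 2475 CPM in T cell reference cells. So was the protease inhibitor *TIMP1*, at 98.7 and 52.7 CPM. The X-linked crossover gene *TEX11* stood at 1029 CPM in early-SPC and 52.5 CPM in late-SPC.

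**Figure D3:**
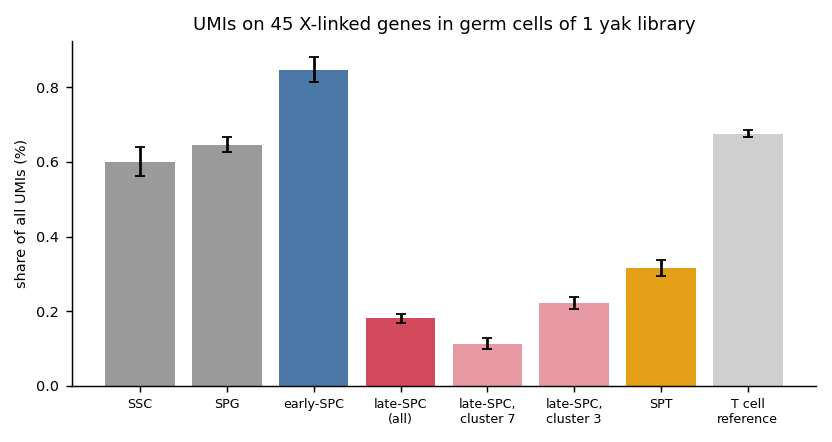
Share of all UMIs (vertical axis, %) that fell on 45 X-linked genes in each typed germ cell type, in both clusters of late-SPC and in T cell reference cells, with exact 95% binomial intervals. Late-SPC has the lowest share of the 5 types at 0.180%, and its cluster 7 the lowest of all bars at 0.112%.

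Somatic RNA also differed between the types. UMIs of 4 somatic lists (T/NK, endothelial, stromal, and myoid and pericyte) made up a median of 0.478% of a late-SPC cell's UMIs, 0.123% of an early-SPC cell's and 0.455% of an SPT cell's. In the 131 late-SPC cells with the lowest somatic share, an alternative chosen after seeing the data, X-linked genes took 0.102% of UMIs, against 0.858% in 36 early-SPC cells and 0.234% in 112 SPT cells chosen alike. These cells held 333261 of 476295 late-SPC UMIs, 246663 of 284770 early-SPC UMIs and 152514 of 271625 SPT UMIs, so they are no separate check. The part of somatic RNA in the X-linked counts that remained was not tested. Summed somatic levels in late-SPC, early-SPC and SPT were 1764, 572 and 2625 CPM for the 12 myoid and pericyte genes (39.8% of the late-SPC counts on *TAGLN*), and 699, 277 and 979 CPM for 11 stromal genes, with *MGP* first and *LUM* at 0 in late-SPC. They were 374, 91.3 and 405 CPM for 11 endothelial genes, with *PECAM1* first and *TIE1* at 0 in late-SPC, and 499.7, 246 and 1196.5 CPM for 15 T/NK genes, with *CCL5* first and *PRF1* and *KLRK1* at 0 in late-SPC. The smooth muscle gene *MYH11* had a UMI in 46.7% of late-SPC cells, in 43.1% of early-SPC cells and in 29.7% of T cell reference cells, or in 25.7%, 25% and 8.93% at 500 UMIs per cell. Sertoli cell genes summed to 98.7 CPM (8 genes, *FSHR* and *CITED1* at 0), Leydig cell genes to 18.9 CPM (5 genes, *STAR*, *NR5A1* and *CYP1B1* at 0) and erythroid genes to 0 CPM (4 genes). The 8 macrophage genes summed to 153 CPM in late-SPC, 7.02 CPM in early-SPC (2 UMIs) and 913 CPM in SPT, and in SPT 887 CPM was *AIF1*. Of 7 epithelial genes with 443 CPM, 89.1% of the counts were *EPCAM*, which was at 407 CPM in early-SPC and 395 CPM in late-SPC. The 17 spermatogonial genes summed to 395 CPM in late-SPC, 1657 CPM in early-SPC (1183 CPM of it *TKTL1*) and 306 CPM in SPT, and the log2 ratio to early-SPC was -2.07 with *TKTL1* and -0.32 without it, with *KIT*, *GFRA1*, *PIWIL4*, *MORC1* and *NANOS3* at 0 in late-SPC.

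Late-SPC was made of 2 clusters of the study, and they differed in meiotic and sperm genes. Cluster 3 held 196 cells and 296537 UMIs (median 1083.5 per cell) and cluster 7 held 65 cells and 179758 UMIs (median 2002). Of 3611 genes with at least 20 UMIs over both, 360 (9.97%) were at least 4-fold higher in cluster 3 and 187 (5.18%) at least 4-fold lower, with a median log2 ratio of -0.01. Clusters were cut from these genes, so the values describe them.

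Cluster 7 held most RNA of axes, recombination and piRNA genes. Axis genes summed to 4634 CPM in cluster 7 and 1342 CPM in cluster 3, with 5 of 11 members at least 4-fold lower in cluster 3 (5.18% of all genes were) and none higher. Recombination genes summed to 2236 and 1113 CPM, with 2 of 10 members at least 4-fold lower in cluster 3 and none higher. For piRNA genes the sums were 5980 and 2883 CPM, with 4 of 12 members lower in that way and none higher. *SYCP1* stood at 668 CPM in cluster 7 and 67.4 CPM in cluster 3, and *SMC1B* at 1329.6 and 206 CPM. *PIWIL1* stood at 979 CPM (839.8 to 1135) in cluster 7 and 70.8 CPM (43.8 to 108) in cluster 3. It had a UMI in 42 of 65 cells (64.6%) of cluster 7 and in 12 of 196 cells (6.12%) of cluster 3, or in 27.7% and 3.06% at 500 UMIs per cell. *TDRD1* (473 against 13.5 CPM), *ASZ1*, a germ granule protein (189 against 6.74 CPM), and *TDRD5* (701 against 125 CPM) were also at least 4-fold higher in cluster 7, whereas *DDX25* (1624 and 1238 CPM), *GTSF1* (395 and 445 CPM) and *MAEL* (228 and 253 CPM) lay close together. The synaptonemal complex gene *C14orf39* (161 against 3.37 CPM) and the linker histone *H1-4* (161 CPM against 0 counts) were among the 10 genes furthest toward cluster 7. *HSPA2* (562 against 105 CPM), *PSMA8* (562 against 84.3 CPM) and the cell surface gene *GML* (273 against 10.1 CPM) lay on the same side.

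Cluster 3 held more RNA of acrosome and axoneme genes. Acrosome genes summed to 9807 CPM in cluster 3 and 5574 CPM in cluster 7, with 4 of 11 members at least 4-fold higher in cluster 3 (9.97% of all genes were), and all 11 had a log2 ratio above 0. *CRISP2* stood at 944 and 61.2 CPM, *TMEM190* at 125 and 5.56 CPM and *IZUMO4* at 2182 and 629 CPM. Axoneme genes summed to 8771 and 5563 CPM, and 29 of 33 had a log2 ratio above 0, with a median of 0.85 (-0.01 over all genes). At least 4-fold higher in cluster 3 were 4 of the 33, a share near the 9.97% of all genes. Division genes as a list were lower in cluster 3, at 2549 CPM against 4289 CPM in cluster 7, a log2 ratio of -0.75 (-0.90 to -0.60), and 1 of 18 members was at least 4-fold higher and 4 were lower (9.97% and 5.18% of all genes were). *CCNA1* (280 CPM, 223 to 347, against 50.1 CPM, 22.9 to 95) and *AURKA* (334 against 89.0 CPM) lay the other way from their list. *VSX1* stood at 543 CPM in cluster 3 and 16.7 CPM in cluster 7. Some of the highest late-SPC genes did not divide the clusters. *CLGN* stood at 3133 and 3076 CPM, *DKKL1* at 4091 and 3466 CPM, *TCFL5* at 455 and 439 CPM and *YBX2* at 931 and 907 CPM in clusters 3 and 7.

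**Figure D4:**
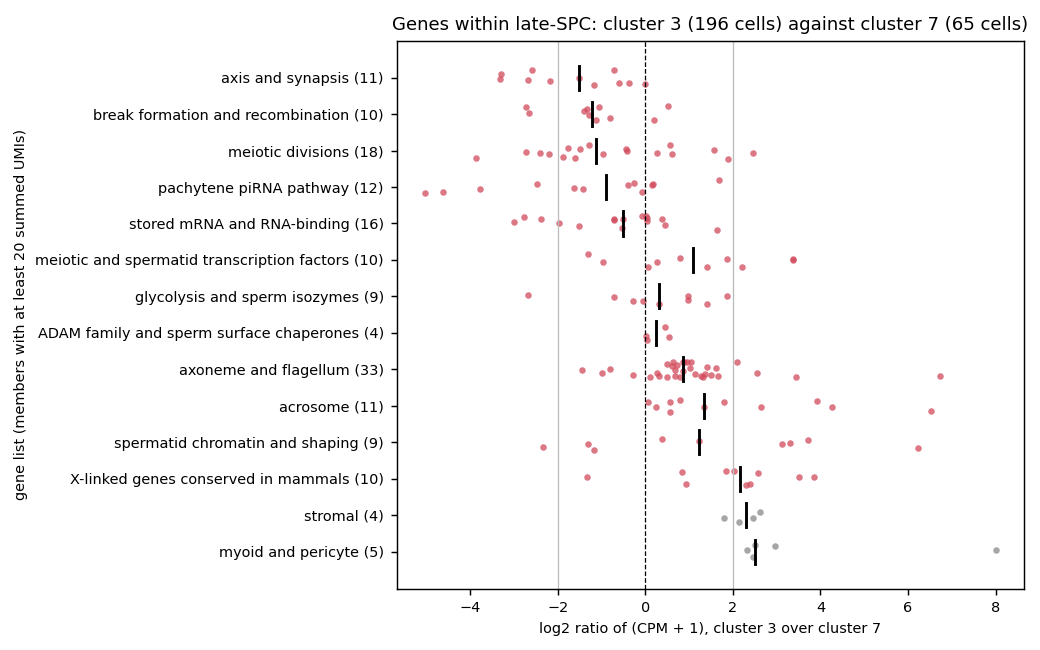
Log2 ratio of CPM + 1 between cluster 3 and cluster 7 of late-SPC (horizontal axis) for each list member with at least 20 UMIs (points, with their number beside the list), the median of each list (black bars), the median of all 3611 genes (dashed line) and a 4-fold difference either way (grey lines). Axis, recombination, division and piRNA genes lie mostly to the left and acrosome, axoneme, X-linked and somatic genes (grey points) to the right.

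The clusters were also compared by the shares of single cells. Axis genes took a median of 0.445% of a cell's UMIs in cluster 7, where each of the 65 cells had at least 1 such UMI, 0.0849% in cluster 3 and 0.680% in early-SPC. The piRNA genes took a median of 0.552% in cluster 7, 0.181% in cluster 3, 0.144% in early-SPC and 0.153% in SPT. The acrosome genes took 0.513% in cluster 7, 0.670% in cluster 3 and 0.775% in SPT, against 0.0765% in early-SPC. The quartiles of clusters 3 and 7 were apart for axis genes (0 to 0.164% and 0.321% to 0.610%) and overlapped for acrosome genes (0.361% to 1.12% and 0.322% to 0.741%). Across all 261 cells the acrosome share had a Spearman rho of 0.027 with the axis share and 0.26 with the piRNA share (0.45 within cluster 3 and 0.37 within cluster 7). With the axis share it was 0.32 within cluster 3 and -0.37 within cluster 7. These shares have the cell's total in common and are sparse, so the rho values are a description.

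**Figure D5:**
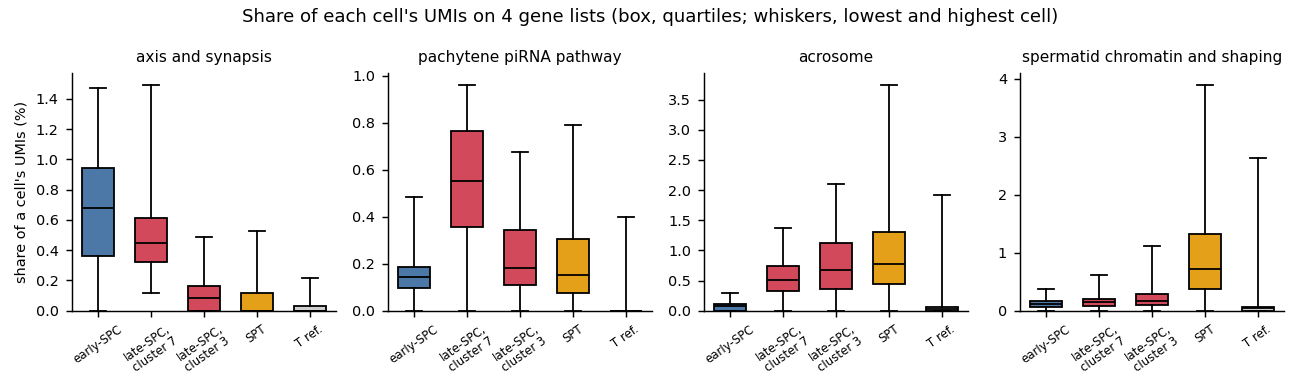
Share of each cell's UMIs (vertical axes, %) on 4 gene lists in early-SPC, in clusters 7 and 3 of late-SPC, in SPT and in T cell reference cells (boxes, quartiles with the median as a line; whiskers, lowest and highest cell; the order of groups is a choice of layout). The piRNA box is highest in cluster 7, with a median of 0.552%, and the spermatid chromatin box is low in both late-SPC clusters.

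Somatic RNA differed between the clusters as well. It took a median of 0.633% of a cell's UMIs in cluster 3 and 0.0728% in cluster 7. Myoid and pericyte genes summed to 2610.1 CPM in cluster 3 and 367 CPM in cluster 7, endothelial genes to 567 and 55.6 CPM, stromal genes to 975 and 245 CPM, macrophage genes to 229 and 27.8 CPM, and T/NK genes to 600.3 and 334 CPM. The 10 genes furthest toward cluster 3 included the pericyte gene *RGS5* (256 CPM against 0 counts), the vascular connexin *GJA4* (158 CPM against 0 counts) and the T cell receptor chain *CD247* (135 CPM against 0 counts). The others were *MISP3*, which ranked first, *ADSS1*, *EPSTI1*, *BAG5*, *PTPRK*, *PLCL2* and ENSBGRG00000010428. Neither these nor *GJA4* are on a somatic list. X-linked genes took 0.222% of UMIs in cluster 3 and 0.112% in cluster 7, and *RPS4X* stood at 698 and 117 CPM. In the 98 cells of cluster 3 and the 33 cells of cluster 7 with the lowest somatic share, X-linked genes took 0.137% and 0.0596%. In these cells acrosome genes summed to 12055.6 and 5738 CPM, axis genes to 1593 and 4870.4 CPM and piRNA genes to 3593 and 6481 CPM. These cells held 188958 of the 296537 UMIs of cluster 3 and 129147 of the 179758 UMIs of cluster 7. The sums are thus mostly of the same counts as in all cells, and their like directions are no separate check.

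In the cattle-yak library no cells were typed by the study, so no types were compared. The sums are over whole libraries or their kept cells, which sets 1 library against 1 other. The 10 markers summed to 586.6 CPM over all yak cells and 63.7 CPM over all cattle-yak cells, a log2 ratio of -3.20 (-3.26 to -3.15). *PGK2* (log2 ratio -6.39), *ADAM2* (-6.09) and *NME8* (-5.62) were furthest apart, *PIWIL1* was at 4.93 CPM against 42.6 CPM, and *MLH3* differed by 0.10 (-0.01 to 0.20). *MLH3* gave 1339 of the 2789 marker UMIs in cattle-yak but 1738 of 35675 in yak, and the ratio without it was not computed. Acrosome genes differed by -3.77 and axis genes by -0.89. These sums are mostly not of typed late-SPC cells, since 84.8% of the yak library's UMIs on the 10 markers lay in 792 untyped cells above the limits on UMIs or genes, and late-SPC cells held 7.60% of those of *PIWIL1*. With kept cells only (10324 in yak and 7092 in cattle-yak, each by its own library's limits, an alternative chosen after seeing the data), the markers stood at 143 and 44.3 CPM, a log2 ratio of -1.69 (-1.79 to -1.60). Acrosome genes then differed by -2.37, axis genes by -0.94, *ADAM2* by -4.37 (-5.39 to -3.52) and *PIWIL1* by -3.60 (-4.28 to -2.99), against -3.11 for *PIWIL1* over all cells.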

How the data were processed

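One library per animal was measured, 1 yak and 1 cattle-yak. The authors counted UMIs per gene and cell barcode with Cell Ranger, after mapping reads to a yak genome. Its version was 5.0.0 per the file headers and 2.1.1 in the submitters' processing notes, and the study's methods name another version. The deposited values are raw UMI counts with no normalization. Of 26961 genes, 15722 have a symbol in the deposited gene table, and 38 symbols stand on several rows, of which the first was used. The RefSeq table given for the organism is of another assembly and no coordinate or sequence was taken from it. Germ cell types and clusters came from the study's list of typed barcodes. The fold changes and p-values in the study's tables were not used.

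UMIs were summed over the cells of each type and scaled to CPM. Kept cells had under 30% mitochondrial UMIs and UMI and gene numbers within 2 SD of the mean, which left 10324 yak cells, more than the study states. No doublet caller was run and no cell was removed for it. The study's methods say that droplets with several cells were eliminated. Genes were compared by the log2 ratio of CPM + 1, among genes with at least 50 UMIs over both types (20 for the clusters), and a 4-fold rule of size stood in for a test, since each group is 1 library. List ratios are ratios of summed counts. T cell reference cells had UMIs of at least 2 T cell genes. Cells were thinned to 500 UMIs to compare shares of cells. Intervals cover counting error only.

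Genes were named by a rule: any member of the gene lists, the 15 genes furthest above all other kept cells (at least 50 late-SPC counts and a UMI in 20% of cells), and the 10 furthest each way in each comparison. The members, lists and rules were chosen with earlier results of these data known. Of each list the genes in the annotation are counted, and the numbers for all germline lists are 10 of 13 markers, 14 of 18 axis, 20 of 31 recombination, 18 of 23 piRNA, 26 of 36 division, 16 of 25 glycolysis, 12 of 19 ADAM, 22 of 30 acrosome, 43 of 52 axoneme, 29 of 37 chromatin, 21 of 26 transcription factor, 26 of 32 stored mRNA, 17 of 26 spermatogonial and 45 of 65 X-linked genes. Another 6 X-linked testis genes (of 17) summed to 103 CPM in late-SPC, 2230 CPM in early-SPC and 431 CPM in SPT. Their log2 ratio to early-SPC was -4.44, or -3.57 without the member with the most counts and -3.53 thinned. To SPT it was -2.07, or -0.81 without the member with the most counts and -1.35 thinned. Alternatives changed the filter, the fold, the weighting of cells, the depth, the features counted and the cells kept. Scripts used Python 3.11.15, numpy 2.4.6, scipy 1.17.1, pandas 2.3.3 and matplotlib 3.10.9, and were tested on simulated data.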

Additional observations from a re-analysis of the deposited data

Results flagged for a closer look

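Cells above the limits on UMIs or genes held most counts of the late-SPC markers. These 792 cells of the yak library (median 24011.5 UMIs) are in no germ cell type of the study and entered only the sums over the whole yak library, and they carried 84.8% of the library's UMIs on the 10 markers. For *PIWIL1* they carried 84.7% and late-SPC cells 7.60%, and for *ADAM2* 88.2% and 5.30%. Of 503 yak cells with UMIs of at least 3 markers, 272 lay above the limits and 111 were late-SPC. At 500 UMIs per cell, at least 2 markers were seen in 11.5% of the cells above the limits and in 31.0% of late-SPC cells. Whether they are doublets was not tested.

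In the cattle-yak library, where no cell was typed, 21 of 8930 cells (0.235%, exact interval 0.146% to 0.359%) had UMIs of at least 5 of the 10 markers, a signal in cells that no comparison of types used. UMIs of at least 3 markers were seen in 107 of the 8930 cells (1.20%) and in 4 of 885 yak T cell reference cells (0.452%), whose median depth was 2296 UMIs. The 8930 cells were taken with no limit on depth, whereas the T cell reference cells were kept cells. The depth of the 107 cells and mixed droplets among them were not tested. In the yak library 287 of 11991 cells (2.39%) had UMIs of at least 5 markers, 207 of them above the limits and 43 of them late-SPC. The median depth was 3155 UMIs per cell in cattle-yak and 2533 UMIs in yak.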

How the results depend on the processing

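With 1 library per group no result has a replicate check, and depth (a median of 1168 UMIs per late-SPC cell) sets which genes could be compared. No paired analysis was possible because each group came from 1 library and no result comes from a test. Counts of genes at least 4-fold apart depended on the settings, given as higher and lower. Against early-SPC (649 and 447) they were 119 and 40 with cells thinned to 500 UMIs, 3434 and 2136 with no filter, 137 and 105 with a minimum of 200 UMIs, and 1054 and 825 at 2-fold. They were 255 and 336 with cluster 7 only (median log2 ratio -0.23, against 0.28), 391 and 314 without the 10% deepest cells, and 509 and 503 with cluster 3 only. Against SPT (239 and 285) they were 24 and 59 thinned, 1511 and 2716 with no filter, 39 and 38 with 200 UMIs, 848 and 509 at 2-fold, and 83 and 151 without the deepest cells. They were 144 and 239 with cells weighted equally, 109 and 258 with cluster 3 only, 170 and 261 with an offset of 10 CPM, and 288 and 237 in the 50% of cells with the lowest somatic share, an alternative chosen after seeing the data. Between clusters 3 and 7 (360 and 187) they were 118 and 52 thinned, 4127 and 1310 with no filter, 16 and 8 with 200 UMIs, and 819 and 680 at 2-fold. They were 233 and 150 in the low-somatic cells. Thinned counts kept the same minimum of UMIs, which a gene high in the group with more cells passed more easily. The cattle-yak log2 ratio of the markers (-3.20) was -1.69 with kept cells of both libraries only, also chosen after seeing the data. The X-linked share of late-SPC UMIs (0.180%) was 0.210% without mitochondrial and rRNA features, 0.262% with cells weighted equally, 0.132% without *RPS4X*, 0.222% in cluster 3, 0.112% in cluster 7 and 0.102% in the low-somatic cells, below early-SPC in each. The summed markers (2977 CPM) were 3466 CPM without mitochondrial and rRNA features, 2500.1 CPM with cells weighted equally and 3424 CPM in the low-somatic cells. Their log2 ratio to early-SPC (3.92) was 3.34 with cells weighted equally and 2.67 thinned. That of the X-linked genes (-2.23) was -1.61 with cells weighted equally and -1.76 thinned. At 500 UMIs, *PIWIL1* was seen in 9.20%, *ADAM2* in 10.7% and *SPATA16* in 25.3% of late-SPC cells, against 20.7%, 26.8% and 50.6%.

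Of 366 values for 46 list ratios under 8 alternatives, 192 lay within the counting interval and 164 outside it without a turn of a ratio whose interval excluded 0, and 10 turned such a ratio. Among those that turned no such ratio, 13 values, of 5 ratios whose interval held 0, changed sign, such as axoneme genes against SPT (0.05, and -0.28 in the low-somatic cells). Against SPT, the ADAM list turned to -0.79 and the transcription factors to -0.27 without their top member, the latter also to -0.013 in the low-somatic cells, macrophage genes to 1.59 without *AIF1*, and myoid and pericyte genes to 0.056 with cells weighted equally and 0.023 thinned. Against early-SPC, T/NK genes turned to -0.030 with cells weighted equally, and with cluster 7 only, endothelial genes turned to -0.71, stromal genes to -0.18 and myoid and pericyte genes to -0.64. These are log2 ratios, and the cause was not tested beyond what each setting removes.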
